A study of Mus musculus with 11 samples.

Results

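The 33 genes described here encode enzymes that make or adjust the nucleotide pools of the cell. They were listed by name and found by their symbol among 24064 genes, 1 transcript standing for each gene, chosen for its mean level in the size-gated libraries. The list holds 12 genes of deoxynucleotide (dNTP) and thymidylate supply, 12 of purine synthesis, 5 of pyrimidine synthesis and 4 of the folate cycle. All 33 were found. The libraries came from haematopoietic stem cells (HSCs), the cells that maintain all blood lineages, from the postnatal day 0 liver of wild-type C57BL/6 mice. The sort took Lineage- Sca1+ cKit+ CD150+ CD48- cells, and 100 to 200 cells went into each Smart-seq2 library, a full-length cDNA method for small inputs. Of the 11 libraries, 4 came from the FSC-A High gate, 3 from the FSC-A Low gate and 4, labelled WT HSC with no gate on scatter, are called unfractionated here. FSC-A, forward scatter area, is commonly read as a measure of cell size. No label ties a replicate to an animal of its own, so the spread behind each p-value is that between these libraries and may be technical.

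Purine nucleotides are built step by step on ribose phosphate supplied as PRPP, whereas the pyrimidine ring is made first and then joined to PRPP. Ribonucleotide reductase turns ribonucleotides into deoxynucleotides, and thymidylate synthase adds the methyl group that makes thymidylate, taking it from the folate cycle. Folate-bound carbon units also enter the purine ring. In dividing cells many of the dNTP enzymes are made mainly around S phase, when DNA is copied, and HSCs of the newborn liver include dividing cells, in contrast to the mostly resting HSCs of adult marrow.

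The gated values were taken as RPKM, reads per kilobase of transcript and per 1000000 reads, which allows genes to be compared per length. No header names this unit. By an estimate of depth from the lowest values, about 186 reads or more stood behind every member in each gated library. The sort was checked on marker genes. Summed over 7 HSC genes, levels were 206 to 282 RPKM in FSC-A High and 405 to 496 RPKM in FSC-A Low, and 4 of the 7, among them Hlf, Mecom and Meis1, were lower in FSC-A High. Of the gate's positive markers Kit was lower in FSC-A High, while Ly6a and Slamf1 did not pass. Of the other cell types' markers, Cd3e, Il7r, Rag1, Dntt, Ctsg, Ms4a2 and Mcpt8 were listed at 0 in all 7 libraries. The 5 lymphoid genes, nearly all Cd79b, summed to 18.0 to 56.1 RPKM in FSC-A High and 18.6 to 32.1 RPKM in FSC-A Low. The 4 mast cell or basophil genes, nearly all Gata2, summed to 55.1 to 86.8 and 120 to 150 RPKM, in that order. Likewise, megakaryocyte genes summed to 69.6 to 103 and 52.3 to 67.0 RPKM. Hepatocyte genes, mostly Trf, reached 57.2 to 66.9 and 50.9 to 74.3 RPKM, and endothelial genes 3.12 to 7.93 and 9.72 to 16.7 RPKM. The 8 erythroid genes summed to 110 to 237 RPKM in FSC-A High and 69.0 to 102 RPKM in FSC-A Low, nearly all of it Hbb-bt and Epor. The 6 myeloid genes, mostly Lyz2 and Prtn3, summed to 279 to 406 RPKM in FSC-A High and 261 to 264 RPKM in FSC-A Low. Whether these shifts had a part in the differences described next was not tested.

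Promoters are shown for 6 members: the paired subunits Rrm1 and Rrm2, the neighbours Paics and Ppat, and Dtymk and Impdh2. Of the neighbours, Paics alone passed. Dtymk and Impdh2 hold each of the 3 motifs marked, as does Atic, which did not pass and is not shown. Each runs from 250 bases before to 50 after the outermost annotated start, 5′ to 3′ on the gene's strand, from RefSeq on GRCm38.p6. Capitals mark matches on either strand to an E2F core (any of TTCCCGC and likewise TTGGCGC and likewise TTCGCGC and likewise TTGCCGC), to a CCAAT box (CCAAT) or to an E-box (CACGTG). Rrm1 (chr7:102441445-102441744, plus strand) and Rrm2 (chr12:24708004-24708303, plus strand) encode the subunits of 1 enzyme. Dtymk (chr1:93801885-93802184, minus strand) encodes thymidylate kinase, and Impdh2 (chr9:108560186-108560485, plus strand) the main enzyme of the step towards GMP. Paics (chr5:76951052-76951351, plus strand) and Ppat (chr5:76951529-76951828, minus strand) encode purine synthesis enzymes and are read in opposite directions from starts 276 bases apart.
Rrm1: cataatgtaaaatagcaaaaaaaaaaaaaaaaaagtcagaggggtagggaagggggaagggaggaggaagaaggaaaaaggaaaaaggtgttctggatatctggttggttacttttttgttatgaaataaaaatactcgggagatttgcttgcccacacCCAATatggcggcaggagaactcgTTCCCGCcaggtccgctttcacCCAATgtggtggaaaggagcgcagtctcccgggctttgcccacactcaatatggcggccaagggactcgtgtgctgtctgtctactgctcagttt
Rrm2: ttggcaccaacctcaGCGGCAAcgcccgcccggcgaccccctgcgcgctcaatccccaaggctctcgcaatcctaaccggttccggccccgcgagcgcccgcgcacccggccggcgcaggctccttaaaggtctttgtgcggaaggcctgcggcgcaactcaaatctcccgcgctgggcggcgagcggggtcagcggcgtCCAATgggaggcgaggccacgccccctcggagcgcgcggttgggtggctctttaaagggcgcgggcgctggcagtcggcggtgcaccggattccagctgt
Dtymk: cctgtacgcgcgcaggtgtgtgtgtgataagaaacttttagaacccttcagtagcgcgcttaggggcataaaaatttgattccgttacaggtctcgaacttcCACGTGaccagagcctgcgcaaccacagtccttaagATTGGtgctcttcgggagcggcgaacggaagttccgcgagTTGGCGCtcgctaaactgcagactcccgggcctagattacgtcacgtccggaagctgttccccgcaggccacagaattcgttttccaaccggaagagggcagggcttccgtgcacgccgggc
Impdh2: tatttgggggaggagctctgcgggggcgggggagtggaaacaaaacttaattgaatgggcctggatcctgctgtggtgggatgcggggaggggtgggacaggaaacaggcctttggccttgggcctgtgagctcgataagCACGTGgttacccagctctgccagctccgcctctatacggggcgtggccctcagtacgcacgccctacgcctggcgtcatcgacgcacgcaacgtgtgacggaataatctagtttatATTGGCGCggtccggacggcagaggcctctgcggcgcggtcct
Paics: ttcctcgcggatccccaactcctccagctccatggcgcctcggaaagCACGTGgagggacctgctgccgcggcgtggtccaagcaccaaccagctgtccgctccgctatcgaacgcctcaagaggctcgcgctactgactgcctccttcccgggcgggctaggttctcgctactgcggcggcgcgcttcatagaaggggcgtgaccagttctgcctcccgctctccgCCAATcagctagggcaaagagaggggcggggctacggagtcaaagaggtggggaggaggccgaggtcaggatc
Ppat: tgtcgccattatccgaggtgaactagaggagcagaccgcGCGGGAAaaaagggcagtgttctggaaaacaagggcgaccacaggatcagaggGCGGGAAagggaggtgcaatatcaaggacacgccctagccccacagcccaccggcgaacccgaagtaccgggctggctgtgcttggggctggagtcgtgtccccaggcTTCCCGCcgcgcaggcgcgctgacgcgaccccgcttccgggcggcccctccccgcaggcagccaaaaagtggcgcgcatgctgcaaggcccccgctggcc

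Promoters of 30 members were matched, and Rrm2b, Pfas and Dhodh were not. An E2F core was found in 12 of the 30, among 18.3% of the 8389 promoters of genes tested and 9.72% of all 27025 promoters. By the test described next, 12 of the 30 were higher in FSC-A High, and 5 of those 12 held an E2F core, as did 7 of the other 18. A CCAAT box was found in 11 of the 30 (6 of the 12 and 5 of the 18), against 39.98% of tested promoters and 38.0% of all. An E-box was found in 6 of the 30 (5 of the 12 and 1 of the 18), against 10.5% of tested promoters and 7.24% of all. A CHR element, spelled TTTGAA and in its other form TTCGAA, was found in 4 of the 30 (2 and 2), against 14.1% of tested promoters and 19.5% of all. In Impdh2 the E2F core overlaps the CCAAT box match on the opposite strand, just after the start. These matches describe letters in a window and do not show binding.

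In FSC-A High HSCs 8 of the 12 dNTP and thymidylate genes had higher RNA levels, led by Tk1, Tyms and Rrm2, and fewer genes of the other branches passed. Of the 33 members, 13 were higher in FSC-A High, none was lower and 20 did not pass (limma on log2(RPKM + 1), Benjamini-Hochberg adjusted p below 0.05 over 10619 genes). Over all genes tested, 27.3% passed, 15.6% as higher and 11.7% as lower. By branch, 8 of 12 dNTP and thymidylate genes were higher, 3 of 12 purine genes, 1 of 5 pyrimidine genes and 1 of 4 folate genes. The median log2 difference was 0.80 in the dNTP and thymidylate branch, 0.19 in the purine branch, 0.09 in the pyrimidine branch, 0.29 in the folate branch and 0.30 over all members, against -0.04 over all genes tested. The members share roles and some share S phase control, so they are not independent, and differences between the branches were not tested. Each library pools cells, so more cells in a phase and more RNA per cell cannot be told apart. With each library scaled to its total of gene values, which moves the median of all genes tested to -0.31, 8 members were higher, 3 were lower (Mthfd1, Samhd1 and Impdh1) and the members' median was 0.04.

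**Figure D1:**
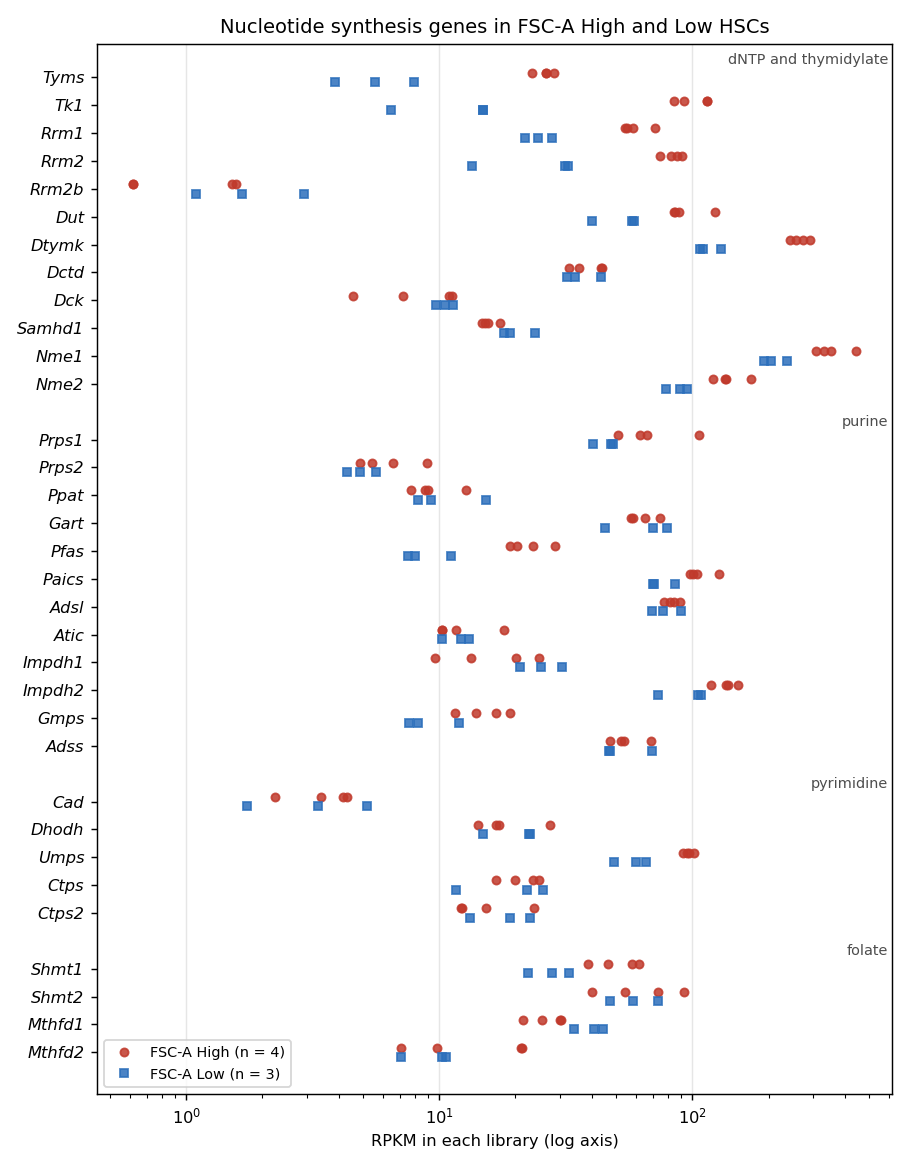
RPKM of the 33 members (log axis) in each FSC-A High library (red circles, n = 4) and each FSC-A Low library (blue squares, n = 3), grouped by branch. Tk1 lies between 84.6 and 114 RPKM in FSC-A High and between 6.42 and 14.9 RPKM in FSC-A Low, whereas most purine and pyrimidine genes overlap between the groups.

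The salvage enzyme Tk1, thymidine kinase, which phosphorylates thymidine taken up from outside, had the largest difference of the list. Its level was 84.6, 92.7, 114 and 114 RPKM in the FSC-A High libraries and 14.9, 6.42 and 14.9 RPKM in the FSC-A Low libraries. The groups were far apart, and Low replicate 2 was the lowest of all 7. The log2 difference was 3.04 (SE 0.26, limma adjusted p = 8.01e-06), rank 41 of 10619 genes. The gene spans chromosome 11, 117815519 to 117826087, overlapping the annotated span of Afmid, from which its reads may not be fully separable. Tyms, thymidylate synthase, makes thymidylate anew from dUMP. It stood at 23.3, 26.3, 26.4 and 28.3 RPKM in FSC-A High and at 3.87, 5.58 and 7.93 RPKM in FSC-A Low. The libraries of each group lay close together beside the gap between groups, and the log2 difference was 2.03 (SE 0.26, limma adjusted p = 0.000131). The gene lies on chromosome 5, 30038546 to 30073645.

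Dtymk, thymidylate kinase, takes the products of both Tk1 and Tyms to the diphosphate. It was the second most abundant member per length in both groups, at 256, 274, 292 and 243 RPKM in FSC-A High and 107, 110 and 130 RPKM in FSC-A Low. No library of FSC-A High came near those of FSC-A Low, and the log2 difference was 1.20 (SE 0.13, limma adjusted p = 5.23e-05). After correction of each library for trends over transcript length and GC content the difference was 0.60 and still passed. Dut, dUTPase, which removes dUTP and yields dUMP for Tyms, stood at 84.9, 88.3, 123 and 85.2 RPKM in FSC-A High and 57.9, 40.3 and 59.0 RPKM in FSC-A Low. The groups did not overlap, and High replicate 3 stood above the rest. Its log2 difference of 0.85 (SE 0.19, limma adjusted p = 0.00574) became 0.28 once length and GC content were accounted for (adjusted p = 0.35001) and 0.56 after correction for the trend over expression level (adjusted p = 0.0540).

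Both main subunits of ribonucleotide reductase were higher in FSC-A High, and the alternative small subunit did not pass. Rrm2, the small subunit of proliferating cells, had 86.9, 82.7, 90.9 and 74.6 RPKM in FSC-A High and 31.4, 13.5 and 32.2 RPKM in FSC-A Low (log2 difference 1.76, SE 0.26, limma adjusted p = 0.000391). As with Tk1, Low replicate 2 was the lowest. Rrm1, the large subunit, had 54.3, 58.1, 55.1 and 71.0 RPKM in FSC-A High and 27.9, 24.5 and 21.7 RPKM in FSC-A Low (log2 difference 1.23, SE 0.18, limma adjusted p = 0.000359). For Rrm1, Low replicate 2 was not the lowest. Rrm2b, the alternative small subunit induced by p53 and used outside S phase, was the least abundant member in both groups. It had 0.618, 1.57, 0.617 and 1.51 RPKM in FSC-A High and 1.10, 2.91 and 1.66 RPKM in FSC-A Low. Its groups overlapped, and the log2 difference of -0.46 had a 95% interval of -1.23 to 0.30.

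Nme1 and Nme2, nucleoside diphosphate kinases that carry out the last step to triphosphates, were higher in FSC-A High by smaller factors. Nme1, the most abundant member per length, had 331, 445, 353 and 307 RPKM in FSC-A High and 193, 238 and 204 RPKM in FSC-A Low (log2 difference 0.75, SE 0.15, limma adjusted p = 0.00239). Nme2 had 121, 170, 136 and 134 RPKM in FSC-A High and 78.6, 94.9 and 89.1 RPKM in FSC-A Low (log2 difference 0.67, SE 0.15, limma adjusted p = 0.00672). In both genes the groups did not overlap and High replicate 2 was the highest library. The genes lie 2669 bases apart on chromosome 11 and are close in sequence, so reads may have been split between them and their separate values are uncertain. The call for Nme1 ended with the trend over expression level removed (0.22, adjusted p = 0.190). That for Nme2 ended with library totals as the scale (0.36, adjusted p = 0.0718), with the expression level trend removed (0.29, adjusted p = 0.151) and with the length and GC trend removed (0.06, adjusted p = 0.790), its transcript being 734 nt long.

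Of the dNTP genes that did not pass, Dctd, dCMP deaminase, which feeds dUMP to Tyms, overlapped fully, at 32.6 to 43.9 RPKM in FSC-A High and 32.1 to 43.4 RPKM in FSC-A Low. Dck, deoxycytidine kinase, stood at 4.55, 7.195, 11.2 and 10.9 RPKM in FSC-A High and 9.72, 10.5 and 11.3 RPKM in FSC-A Low, with 2 FSC-A High libraries below all others. Samhd1, which breaks dNTPs down, was the only dNTP member whose FSC-A High libraries all lay below the FSC-A Low ones. It had 15.6, 14.7, 15.1 and 17.3 RPKM in FSC-A High and 19.1, 18.0 and 23.8 RPKM in FSC-A Low. Its log2 difference of -0.35 (95% interval -0.81 to 0.11) did not pass, and it was -0.04 with the length and GC trend removed. Over all members, 14 had FSC-A High libraries entirely above and 2 entirely below the FSC-A Low ones, against 18.9% and 16.0% of genes tested.

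**Figure D2:**
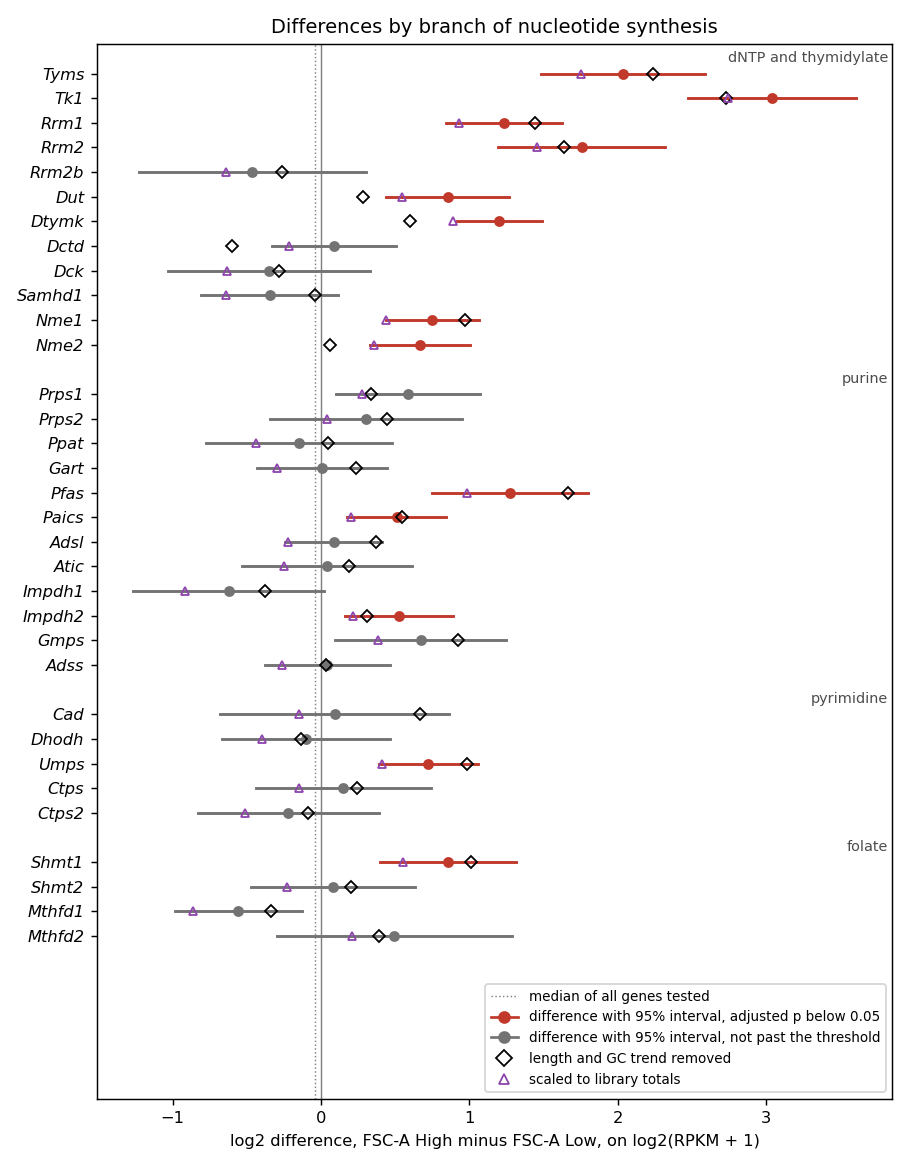
Log2 difference of each member, FSC-A High minus FSC-A Low on log2(RPKM + 1), with its 95% interval from limma (red: adjusted p below 0.05; grey: not past the threshold), and the values with the length and GC trend removed (diamonds) or with libraries scaled to their totals (triangles). The 13 called members stay above 0 on each of these scales, the lowest being Nme2 at 0.06 with the length and GC trend removed.

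Purine synthesis starts with Prps1 and Prps2, which make PRPP, and with Ppat, the amidotransferase of the committed step. Prps1 had 50.6, 66.0, 62.4 and 106 RPKM in FSC-A High and 40.4, 47.6 and 48.7 RPKM in FSC-A Low. The groups did not overlap, but the log2 difference of 0.58 (SE 0.22, limma adjusted p = 0.0712) did not pass. Prps1 did pass with a filter at 5 RPKM (adjusted p = 0.0480) and without High replicate 1 (0.73, adjusted p = 0.0274). Without High replicate 4, its highest library, the difference was 0.38 (adjusted p = 0.147). Prps2, at 4.88 to 8.91 RPKM in FSC-A High and 4.33 to 5.60 RPKM in FSC-A Low, was far below Prps1 per length and overlapped. Ppat overlapped as well, at 7.71 to 12.8 RPKM in FSC-A High and 8.26 to 15.3 RPKM in FSC-A Low. Its log2 difference was -0.15 (95% interval -0.78 to 0.48).

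Later in the pathway Pfas, which makes the fourth intermediate, was the purine gene with the largest difference. It had 20.3, 19.0, 23.6 and 28.6 RPKM in FSC-A High and 11.1, 8.001 and 7.504 RPKM in FSC-A Low (log2 difference 1.27, SE 0.24, limma adjusted p = 0.00211). The groups were well apart, and its call held in each of the 19 alternative settings. Paics, a bifunctional enzyme of the middle steps, had 105, 100.2, 97.9 and 127 RPKM in FSC-A High and 85.2, 70.4 and 69.7 RPKM in FSC-A Low (log2 difference 0.51, SE 0.16, limma adjusted p = 0.0276). Paics passed and its head-to-head neighbour Ppat, whose annotated span overlaps that of Paics, did not; the difference between them was not tested. The call for Paics did not hold in 7 of 19 alternatives, among them those without High replicate 4 (adjusted p = 0.0596), without Low replicate 2 (0.0803) and without Low replicate 3 (0.0871), and with the replicate number as a block (0.0644), and its difference was 0.20 with library totals as the scale.

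The other enzymes of the ring pathway overlapped between the groups. Gart, which carries out 3 steps, stood at 57.1 to 74.4 RPKM in FSC-A High and 45.2 to 79.3 RPKM in FSC-A Low (0.01 on the log2 scale, 95% interval -0.43 to 0.45). Adsl, adenylosuccinate lyase, stood at 77.2 to 89.5 RPKM in FSC-A High and 69.3 to 90.2 RPKM in FSC-A Low (0.09, interval -0.24 to 0.41). Atic, which completes IMP, stood at 10.2 to 18.0 RPKM in FSC-A High and 10.2 to 13.2 RPKM in FSC-A Low (0.04, interval -0.53 to 0.62). The interval of Atic is the widest of the 3 and that of Adsl the narrowest.

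Past IMP, where the routes to GMP and AMP part, Impdh2 alone passed. Impdh2, the IMP dehydrogenase of proliferating cells, had 139, 136, 152 and 119 RPKM in FSC-A High and 108, 105 and 73.1 RPKM in FSC-A Low (log2 difference 0.53, SE 0.17, limma adjusted p = 0.0334). That call is fragile. It did not hold in 9 of 19 alternatives, including those without High replicate 1 (adjusted p = 0.0566), 2 (0.0669) or 3 (0.0969) and without Low replicate 3 (0.150), and its difference was 0.22 with library totals as the scale. Its isozyme Impdh1 had 24.8, 13.4, 20.1 and 9.62 RPKM in FSC-A High and 25.1, 30.4 and 20.8 RPKM in FSC-A Low, with overlap (-0.62, limma adjusted p = 0.141). Gmps, GMP synthetase, had 16.8, 14.0, 11.6 and 19.1 RPKM in FSC-A High and 12.0, 7.61 and 8.23 RPKM in FSC-A Low (0.67, limma adjusted p = 0.0784), and passed only with the length and GC trend removed (0.92, adjusted p = 0.0252). Adss, adenylosuccinate synthetase on the AMP side, stood at 47.4 to 68.6 RPKM in FSC-A High and 46.9 to 69.1 RPKM in FSC-A Low (0.04, interval -0.38 to 0.46).

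In pyrimidine synthesis Umps alone passed. Umps, which joins orotate to PRPP and makes UMP, had 94.98, 91.5, 97.3 and 101 RPKM in FSC-A High and 65.7, 49.2 and 59.9 RPKM in FSC-A Low (log2 difference 0.72, SE 0.15, limma adjusted p = 0.00405). The FSC-A High libraries lay close together, well above those of FSC-A Low. The call ended with library totals as the scale (0.41, adjusted p = 0.0620) and with the expression level trend removed (0.42, adjusted p = 0.0746). Cad, the large enzyme of the first 3 steps, was low in both groups, at 2.24 to 4.33 RPKM in FSC-A High and 1.74 to 5.17 RPKM in FSC-A Low. Dhodh, the mitochondrial dihydroorotate dehydrogenase, stood at 14.2 to 27.4 RPKM in FSC-A High and 14.9 to 22.9 RPKM in FSC-A Low. The CTP synthetases Ctps, at 16.8 to 24.8 RPKM in FSC-A High and 11.7 to 25.6 RPKM in FSC-A Low, and Ctps2, at 12.2 to 23.7 RPKM in FSC-A High and 13.3 to 22.9 RPKM in FSC-A Low, also overlapped. The widest of these intervals was that of Cad, -0.68 to 0.87 on the log2 scale.

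Of the folate genes Shmt1 alone passed. Shmt1, the cytosolic serine hydroxymethyltransferase, which loads carbon units from serine onto folate, had 61.4, 46.6, 38.7 and 57.6 RPKM in FSC-A High and 28.0, 32.5 and 22.4 RPKM in FSC-A Low. The groups were apart (log2 difference 0.86, SE 0.21, limma adjusted p = 0.00938), and the call ended in 1 of 19 alternatives, with library totals as the scale (0.55, adjusted p = 0.0715). Its mitochondrial counterpart Shmt2 had 40.2, 73.3, 54.2 and 92.4 RPKM in FSC-A High and 73.0, 58.2 and 47.4 RPKM in FSC-A Low. The FSC-A High libraries spanned more than the whole range of FSC-A Low (0.08, interval -0.47 to 0.63). Mthfd1, the cytosolic enzyme of 3 linked folate reactions, had 30.2, 30.04, 25.5 and 21.5 RPKM in FSC-A High and 44.4, 34.1 and 41.0 RPKM in FSC-A Low. Every FSC-A High library was below every FSC-A Low one, yet the log2 difference of -0.56 (SE 0.20, limma adjusted p = 0.0530) missed the threshold narrowly. It passed in 7 of the 19 alternatives, and became -0.34 with the length and GC trend removed. Mthfd2, its mitochondrial relative, split within FSC-A High, at 9.82, 21.2, 20.96 and 7.03 RPKM, against 7.04, 10.7 and 10.3 RPKM in FSC-A Low.

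Ratios of 2 members within a library do not depend on how libraries are scaled to each other, apart from the pseudocount of 1. That pseudocount is of the size of Rrm2b itself (0.617 to 2.91 RPKM over the 7 libraries), so the ratio of Rrm2 to Rrm2b depends on it. For 10 pairs of isozymes or partners, the log2 ratio was compared between the groups by a two-sided exact permutation test. Its p is 2 times the smaller tail, which with 4 against 3 libraries cannot give less than 0.0571. No pair can therefore pass 0.05 in this form of the test. In 6 pairs the groups did not overlap, each at that smallest p (0.0952 adjusted over the 10). Each of these 6 holds a member that was called or whose libraries did not overlap on its own, so the ratios are no separate support, and the share among other gene pairs was not computed. The log2 ratio of Tk1 to Dck, both kinases of salvaged deoxynucleosides, averaged 3.49 ± 0.33 in FSC-A High, against 0.10 ± 0.65 in FSC-A Low (SD, n = 4 and 3). That of Rrm2 to Rrm2b averaged 5.38 ± 0.48 in FSC-A High, against 3.16 ± 1.11 in FSC-A Low. That of Tyms to Dctd averaged -0.56 ± 0.29 in FSC-A High, against -2.50 ± 0.44 in FSC-A Low. The differences between the groups in these 3 were 3.39, 2.22 and 1.95 log2 units.

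Among the isozymes, the log2 ratio of Impdh2 to Impdh1 averaged 3.01 ± 0.46 in FSC-A High, against 1.86 ± 0.17 in FSC-A Low. The ratio of mitochondrial Shmt2 to cytosolic Shmt1 was 0.30 ± 0.60 in FSC-A High, against 1.07 ± 0.27 in FSC-A Low, the only one of the 6 that was lower in FSC-A High. The ratio of Mthfd2 to Mthfd1 went the other way, at -0.94 ± 0.66 in FSC-A High, against -1.99 ± 0.46 in FSC-A Low. The ratio of Nme1 to Nme2 was nearly constant, at 1.35 ± 0.11 in FSC-A High, against 1.26 ± 0.07 in FSC-A Low (difference 0.08, exact permutation p = 0.343, 7 libraries). The ratios of Rrm2 to Rrm1 (0.52, exact permutation p = 0.286), Prps1 to Prps2 (0.28, 0.229) and Ctps to Ctps2 (0.37, 0.571) overlapped between the groups.

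**Figure D3:**
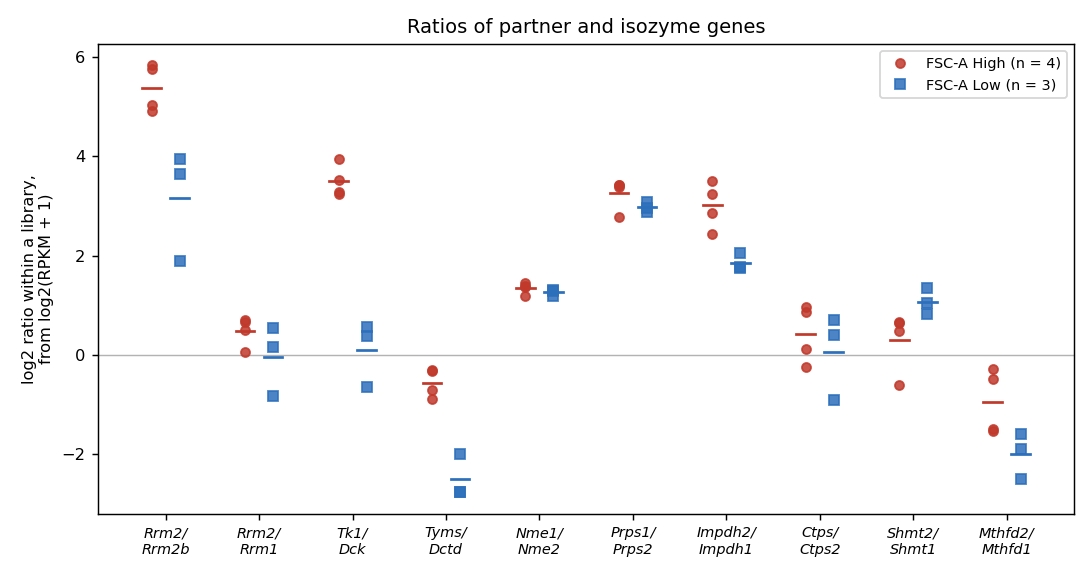
Log2 ratio of 10 gene pairs within each library, from log2(RPKM + 1) values, for FSC-A High (red circles, n = 4) and FSC-A Low (blue squares, n = 3), with group means as lines. The groups separate for Rrm2/Rrm2b, Tk1/Dck, Tyms/Dctd, Impdh2/Impdh1, Shmt2/Shmt1 and Mthfd2/Mthfd1, widest for Tk1/Dck at 3.49 against 0.10.

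Unfractionated HSCs gave levels for the same genes on another scale, counts per 1000000 reads (CPM), which are not scaled for length and were not compared with the gated values. These libraries held 30889443, 21307178, 27206879 and 29952311 reads. Replicate 4 stood apart: 15.2% of its signal came from the ribosomal RNA gene Rn45s, against 3.06% to 5.26% in the others, and it had reads in 11384 genes, against 12909 to 13368. Every member was detected. Paics had the most reads, at 614, 711, 801 and 809 CPM, followed by Impdh2 at 401, 451, 519 and 303 CPM. Rrm2b had the fewest, at 4.11, 8.03, 9.59 and 12.1 CPM. The coefficient of variation over the 4 libraries ran from 6.51% to 50.1% with a median of 26.8% (21.5% without replicate 4).

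The spread between unfractionated libraries differed widely from member to member. Tk1, at 97.3, 157, 257 and 95.2 CPM, had the largest coefficient of variation (50.1%). Tyms, at 108, 164, 219 and 72.7 CPM, had the next (45.6%). For both genes replicate 3 was the highest and replicate 4 the lowest, for Tk1 only just below replicate 1. The totals behind CPM include the Rn45s reads, of which replicate 4 had the largest share. In the deposited signal Tk1 was lowest in replicate 1, at 2283, against 2532 in replicate 4. Rrm1 was highest in replicate 3 as well, at 279, 157, 320 and 148 CPM, but Rrm2 was highest in replicate 2, at 102, 134, 123 and 82.3 CPM. The coefficient of variation of Rrm2, 20.7%, was below the median of the members. At the steady end, Umps had 202, 175, 186 and 177 CPM (6.51%) and Ctps2 had 217, 190.1, 196 and 219 CPM (7.10%).

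**Figure D4:**
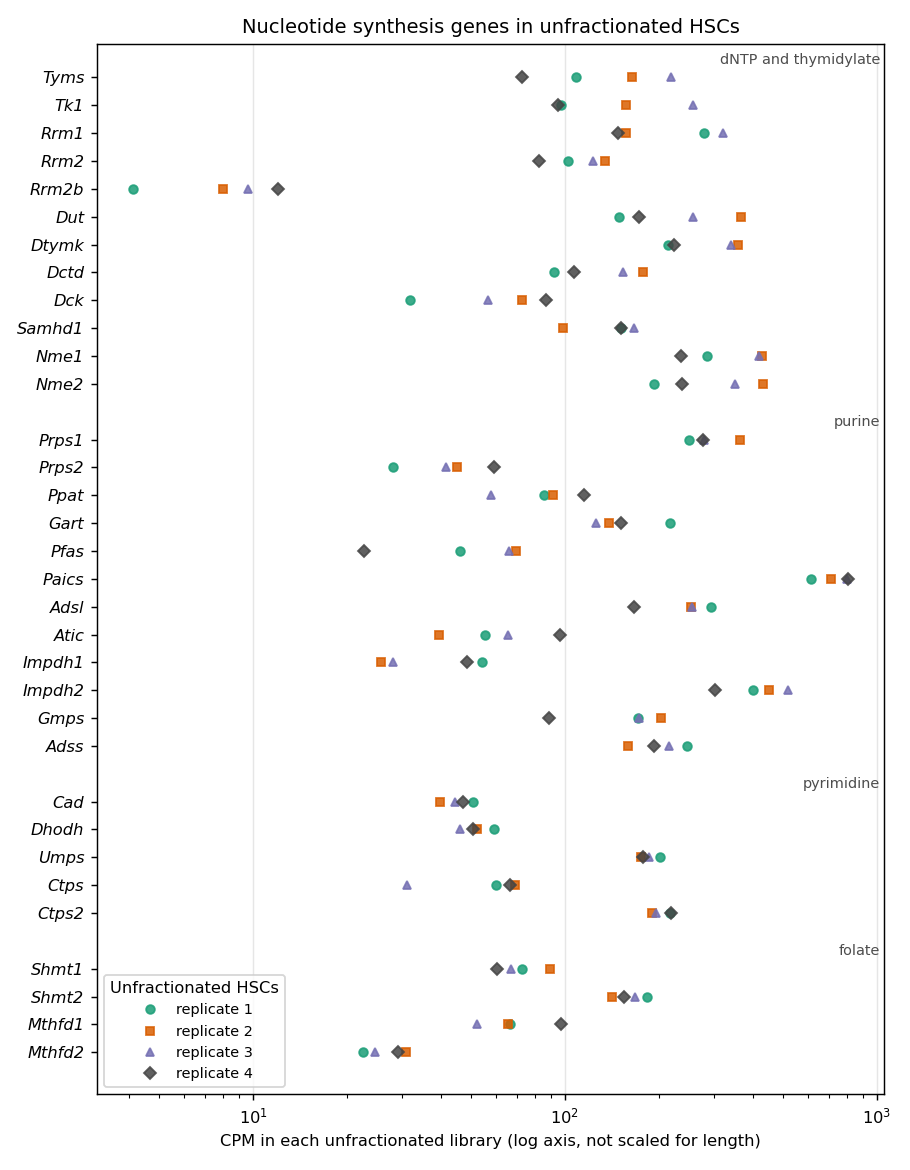
CPM of the 33 members (log axis, not scaled for transcript length) in each of the 4 unfractionated libraries, one symbol per replicate. Tk1 and Tyms spread over 2.70-fold and 3.02-fold between libraries, whereas Umps and Ctps2 lie within 1.15-fold.

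Outside the 33 members, 68 other genes of nucleotide metabolism were listed, of which 58 had enough signal to test. Of these 9 were higher in FSC-A High, 3 lower and 46 did not pass, with a median log2 difference of 0.13. That share of higher calls is close to the 15.6% of all genes tested, and the share of lower calls is below their 11.7%. In the list of dNTP kinases, phosphatases and pool-cleaning enzymes, 4 of 11 were higher and 1 lower. Nme6, a mitochondrial member of the nucleoside diphosphate kinase family, stood at 64.7 ± 15.1 RPKM in FSC-A High and 20.5 ± 3.42 RPKM in FSC-A Low (log2 difference 1.59, limma adjusted p = 0.000295). Dctpp1, which hydrolyses dCTP and its modified forms, stood at 359 ± 80.4 RPKM in FSC-A High and 172 ± 26.6 RPKM in FSC-A Low (1.04, and 0.52 with either the length and GC trend or the expression level trend removed, still past the threshold). Nudt1, which clears oxidised purine dNTPs, had a log2 difference of 0.74, and Itpa, which clears inosine triphosphate and was named after its value was seen, one of 0.75. With the length and GC trend removed Nudt1 was at 0.15 and Itpa at 0.32, and neither passed. The call for Nudt1 also ended with library totals as the scale (0.44, adjusted p = 0.104), without High replicate 2 (adjusted p = 0.0512) and without Low replicate 3 (0.0615). That for Itpa ended with the replicate block (0.116) and without any single library other than High replicate 1 (0.0538 to 0.146). Itpa also lost it with library totals (adjusted p = 0.201) or the upper quartile (0.0743) as the scale. The same held without the filter (0.120), with transcripts summed (0.0648) and with the expression level trend removed (0.0713). Tk2, the gene of the mitochondrial thymidine kinase, was lower, at 16.7 ± 8.42 RPKM in FSC-A High and 33.8 ± 5.49 RPKM in FSC-A Low (-1.09, limma adjusted p = 0.0242), the opposite direction to Tk1. The transcript that stood for Tk2, 1 of 2 listed, has a RefSeq identifier of the non-coding kind. These values may therefore not be those of the coding transcript. Summed over both transcripts the log2 difference was -1.11 (limma adjusted p = 0.0287). The call for Tk2 ended without the filter (adjusted p = 0.114), without High replicate 3, without High replicate 4, without Low replicate 1 and without Low replicate 3.

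In nucleoside and base salvage, 2 of 11 genes were higher and none lower, a share of higher calls near the 15.6% of all genes tested. The nucleoside transporter gene Slc29a1 stood at 165 ± 18.8 RPKM in FSC-A High and 85.4 ± 16.4 RPKM in FSC-A Low (log2 difference 0.95, limma adjusted p = 0.00101). Hprt, which salvages hypoxanthine and guanine, had a log2 difference of 0.65 with libraries that overlapped between the groups, and 0.03 with the length and GC trend removed. Its call also ended with the replicate block (adjusted p = 0.0996) and without High replicate 1, 3 or 4 or Low replicate 1 or 3 (0.0548 to 0.107). Hprt lost it too with library totals (0.35, adjusted p = 0.223) or the upper quartile (0.0530) as the scale. The same held without the filter (0.0822) and with the expression level trend removed (0.152). Among monophosphate kinases and interconverting enzymes, 3 of 13 were higher. Among these were Gmpr2, GMP reductase, at 65.2 ± 5.83 RPKM in FSC-A High and 31.8 ± 0.540 RPKM in FSC-A Low, and the adenylate kinase gene Ak6 (0.90), which was at 0.43 after the length and GC correction and no longer passed. In the list around PRPP supply, 1 of 6 was lower, Pgd of the pentose phosphate pathway, at 13.01 ± 3.14 RPKM in FSC-A High and 27.2 ± 5.13 RPKM in FSC-A Low. Of the 3 mitochondrial carriers, Slc25a33, a pyrimidine nucleotide carrier, was lower, at 4.79 ± 1.98 RPKM in FSC-A High and 15.8 ± 5.08 RPKM in FSC-A Low (-1.56, limma adjusted p = 0.00505). None of 14 further folate genes passed. The smallest p among them were those of Mthfs (0.65, limma adjusted p = 0.0534) and Mthfd2l (-0.88, limma adjusted p = 0.0753).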

How the data were processed

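RNA was measured by Smart-seq2 sequencing of sorted HSCs in 11 libraries, grouped by their titles. STAR, DESeq2 and mm10 appear in the submitters' processing notes, with no versions or roles; other steps are not given in the sources used here. The deposited gated files hold 1 value per RefSeq transcript (33984). No header names the unit. It was taken as RPKM, made by the authors, since multiplying by transcript length gives a sum close to 1000000 in each library. The deposited unfractionated files hold a signal per gene symbol: 100% of values are whole multiples (within 0.01) of the library's lowest value above 0, so reads were recovered and given as CPM. They form a single group, so no count test applies.

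Symbols came from RefSeq for GRCm38, the assembly mm10 denotes: 32259 transcripts matched by identifier, 1331 by symbol, and 394 kept the file's name. Lengths and GC content came from GENCODE M21; the 3181 nt matched to Nme1 may be too long, so its value with the length trend removed is uncertain. The gated groups entered limma 3.58.1 (R 4.3.3; trend, group only) as log2(RPKM + 1), after a filter that asks for 1 RPKM or more in 3 or more libraries; fold changes on this scale understate the change of low genes. Ratios were tested with scipy 1.17.1. Intervals cover 95%. The fit was also run on simulated data, and no result given here rests on that run.

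The members, lists and tests were chosen with earlier results of these data known. Named in full are members past the threshold, their partners, and up to 4 other pathway genes per list with the smallest p; a few genes that the lists count are not reported here by name. Alternatives were scalings (TMM from edgeR 4.0.16, median ratio, upper quartile, library total), pseudocounts of 0.5 and 5, filters, the sum over transcripts, splines with 5 degrees of freedom over length and GC content or over level, each library left out, and the replicate number as a block.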

Additional observations from a re-analysis of the deposited data

Results flagged for a closer look

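Each member was examined for a library far from the others of its group, in FSC-A High and in the unfractionated libraries, 66 groups of 4 libraries in all. In 1 of them the farthest library's gap to its nearest neighbour exceeded 0.829 of the group's range, while chance gives about 1 in 20. Dut stood at 122.9 RPKM in High replicate 3, against 84.9 to 88.3 RPKM in the other FSC-A High libraries. Without that library the log2 difference of Dut was 0.73 and still passed.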

How the results depend on the processing

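Tyms, Tk1, Rrm1, Rrm2, Dtymk and Pfas were called higher in each of 19 alternatives, and the other 7 calls each ended in at least 1. Of the recomputed member values, 588 kept their side of the threshold, 25 lost the call, 12 gained one and none was reversed; 37 changed sign with no call in either setting. The count of members called higher was 13, 8 with library totals as the scale, 7 with the expression level trend removed and 11 to 13 without single libraries. The count called lower was 0, 3 with library totals, 1 with upper-quartile scaling, a pseudocount of 5, a filter at 5 RPKM or the expression level trend removed, and 0 to 1 without single libraries; that 1 was Mthfd1. The members' median of 0.30 was 0.23 with upper-quartile scaling, 0.039 with library totals, 0.19 with a pseudocount of 5, 0.49 with a filter at 5 RPKM (31 members tested), 0.17 with the expression level trend removed, and 0.24 to 0.38 without single libraries. Over all genes, 1657 higher and 1245 lower calls were 980 and 2285 with library totals (30.02% higher in place of 57.1%), 1438 and 1464 with upper-quartile scaling (49.6%), and 976 higher with the length and GC trend removed; without single libraries they were 1313 to 1639 and 868 to 1166. The cause was not tested. Replicate numbers did not pair the libraries (correlations of deviations -0.03, 0.06 and 0.00); with the replicate block, which rests on 3 pairs, 12 members were higher, none was lower, the median was 0.24, and all genes gave 1460 and 971 calls. edgeR and DESeq2 count tests were not run, since no whole reads were recovered for the gated libraries. With 3 or 4 libraries a group, the widest intervals were those of Mthfd2 (-0.30 to 1.29), Cad (-0.68 to 0.87) and Rrm2b (-1.23 to 0.30), and Rrm2b had the fewest reads, about 186 in 1 library.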
